A study of Mus musculus with 6 samples.

Results

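The Akr1c genes are a cluster of aldo-keto reductase genes on mouse chromosome 13. Here the 8 genes Akr1c6, Akr1c12, Akr1c13, Akr1c14, Akr1c18, Akr1c19, Akr1c20, and Akr1c21 are described in the kidneys of wild-type (WT) and Selenbp1-knockout (Selenbp1-KO) mice. Every array probe that carries one of these 8 gene names in the array annotation was taken, with no trimming. This gave 10 probes of 56605, or 8 genes of 37324, and 6 of the genes have 1 probe while Akr1c14 and Akr1c20 have 2 each. The family was picked because its difference between the genotypes was already known from these arrays, so its genotype differences are a description and support nothing.

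The mice were males, aged 8 weeks, that had been fasted for 20 h before the kidneys were taken. Each genotype is represented by 3 samples of the left kidney on 3 arrays, with 1 dye per array, and the 6 arrays share 1 slide. WT replicates 2 and 3 lie on one side of the slide, and WT replicate 4 and all 3 Selenbp1-KO replicates lie on the other. The WT animals were C57BL/6J mice bought from a supplier, and the sources used here do not describe them as littermates of the knockout animals, so genotype and origin cannot be told apart. Selenbp1 itself read 7.02 to 7.07 in WT and 3.98 to 4.13 in Selenbp1-KO samples, and differed by −2.96 on the log2 scale (limma adjusted p = 0.0021). Every value below is a log2 signal relative to the 75th percentile of its own array, so 0 is the 75th percentile of that array and a difference of 1 is a doubling. The 75th percentile ranged from 477 to 751 intensity units over the 6 arrays, and 51.8% to 55.5% of the spots of an array were well above background. Levels of different probes are not comparable, because probes differ in how strongly they bind. The 3 WT values of a probe are given in the order of replicates 2, 3, and 4, and the 3 Selenbp1-KO values in the order of replicates 1, 2, and 3. The small number of arrays limits the precision of every value.

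Aldo-keto reductases of this subfamily use NADPH or NADH to reduce ketone groups of steroids and prostaglandins to alcohols, or to run the reverse oxidation. They are known as hydroxysteroid dehydrogenases, named for the position of the steroid on which they act, and they set how much active hormone reaches its receptor in a tissue. Akr1c18 is the 20α-hydroxysteroid dehydrogenase that inactivates progesterone and can also make prostaglandin F. Akr1c6 is the type 5 17β-hydroxysteroid dehydrogenase, mostly found in the liver. Akr1c14 is a 3α-hydroxysteroid dehydrogenase that inactivates dihydrotestosterone, and Akr1c21 is a 3(17)α-hydroxysteroid dehydrogenase that is abundant in the kidney.

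Because the 8 genes arose by duplication, the sequences of the probes show how far each value belongs to 1 gene. All 10 probes have 60 bases. The closest pair were the Akr1c12 probe and the first of the Akr1c14 probes, which lie over the same stretch of the transcripts. They match at 35 of the 47 bases over which they overlap without gaps (74.5%), and their longest run in common has 11 bases. In the lines below, capitals mark the bases on which this pair is identical.
Akr1c12: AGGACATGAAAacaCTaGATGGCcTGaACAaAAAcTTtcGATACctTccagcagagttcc
Akr1c14: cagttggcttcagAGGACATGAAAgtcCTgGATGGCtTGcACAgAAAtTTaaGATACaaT
The Akr1c6 probe and the Akr1c20 probe of XM_006516464 were the other pair with a run of 11 bases in common. They share 2 runs of 9 or more bases that are separated by 1 extra base in Akr1c20. Stretches of 30 bases are shown, with the shared runs in capitals.
Akr1c6: TGAATACTAACTGGAGGTCCattttgtgcc
Akr1c20: TGAATACTAACaTGGAGGTCCctgtcatgc
For the remaining 43 pairs of member probes the longest run in common had 8 bases or fewer. Against probes of any other gene on the array, the longest run in common had 13 to 15 bases for each member probe. No genome of the arrays' build was used here, so cross-hybridization to transcripts without a probe was not tested.

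All 10 probes map to chromosome 13 of mm9, between 4086493 and 4585755. In the order of the chromosome these are Akr1c14 (NM_134072, 4086493 to 4086552 and 4089196 to 4089255), Akr1c18 (NM_134066, 4131895 to 4131954), Akr1c13 (NM_013778, 4204668 to 4204727), Akr1c19 (NM_001013785, 4247501 to 4247560), Akr1c12 (NM_013777, 4267675 to 4269464), Akr1c6 (NM_030611, 4456428 to 4456487), Akr1c20 (XM_006516464, 4486408 to 4486467, and NM_054080, 4506828 to 4506887), and Akr1c21 (NM_029901, 4585696 to 4585755). The interval of the Akr1c12 probe is longer than its 60 bases, so that probe crosses a splice junction. Akr1c12, Akr1c18, and Akr1c20 are on the minus strand, and the other 5 genes are on the plus strand.

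Akr1c18, the 20α-hydroxysteroid dehydrogenase, was higher in Selenbp1-KO kidneys on every array. It read 2.19, 2.12, and 1.80 in the WT samples and 2.55, 2.55, and 2.85 in the Selenbp1-KO samples (log2). The genotypes did not overlap, with WT replicate 4 the lowest array and Selenbp1-KO replicate 3 the highest. The mean was 2.03 ± 0.21 in WT and 2.65 ± 0.17 in Selenbp1-KO kidneys (SD, n = 3 each), a difference of 0.62 (standard error 0.15) or 1.53-fold. Against WT replicate 4, the only WT array on the same side of the slide, the difference was 0.85. It was between 0.50 and 0.85 in all 17 settings that were run.

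Akr1c14, which inactivates dihydrotestosterone, was read by 2 probes that gave the same picture. At the first probe (position 899 of the transcript), the log2 signal read −0.20, −0.08, and −0.07 in the WT samples and 0.12, −0.02, and 0.13 in the Selenbp1-KO samples. At the second probe (position 1972), it read 2.72, 2.84, and 2.82 in the WT samples and 2.95, 2.89, and 3.03 in the Selenbp1-KO samples. At both probes all knockout values exceeded all WT values, WT replicate 2 was the lowest, and Selenbp1-KO replicate 3 was the highest. The differences were small, 0.20 (standard error 0.10) and 0.16 (standard error 0.10), or 1.14-fold and 1.12-fold.

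Akr1c21, the kidney 3(17)α-hydroxysteroid dehydrogenase, had overlapping genotypes. It read 6.48, 6.45, and 6.91 in the WT samples and 6.88, 6.78, and 6.77 in the Selenbp1-KO samples (log2). WT replicate 4 was the highest array of all, and the other WT arrays were the lowest. Before scaling, the intensities were 63307, 65633, and 62351 in the WT samples and 66622, 52388, and 63742 in the Selenbp1-KO samples. The 75th percentiles of the WT arrays were 711, 751, and 519, so the order of the WT arrays depends on the scaling. The difference was 0.20 (standard error 0.15), and it turned to −0.10 against WT replicate 4, the WT array beside the knockout arrays on the slide. With quantile normalization it was 0.10. Its direction was therefore not settled.

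Akr1c6, the 17β-hydroxysteroid dehydrogenase of the liver, had the widest spread of the 10 probes among the Selenbp1-KO arrays. It read −4.00, −3.97, and −3.48 in the WT samples and −3.70, −2.81, and −2.49 in the Selenbp1-KO samples (log2). Selenbp1-KO replicate 1 lay within the WT range, and replicates 2 and 3 lay above it. The signal was dim but well above background on all 6 arrays. The difference was 0.81 (standard error 0.34), with SDs of 0.29 in WT and 0.63 in Selenbp1-KO kidneys (n = 3 each). It was 0.48 against WT replicate 4 (the slide side as a block), 0.51 with the normexp background correction, and 1.33 with the replicate number as a block.

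Akr1c12, Akr1c13, and Akr1c19 differed by less than the spread between the arrays. Akr1c12 read 1.30, 1.25, and 1.12 in the WT samples and 1.30, 1.23, and 1.25 in the Selenbp1-KO samples (log2), a difference of 0.04 (standard error 0.10). Akr1c13 read 2.85, 2.77, and 2.70 in the WT samples and 2.76, 2.87, and 2.80 in the Selenbp1-KO samples, a difference of 0.04 (standard error 0.10). Akr1c19 read 1.89, 1.89, and 1.96 in the WT samples and 2.06, 1.83, and 2.05 in the Selenbp1-KO samples, a difference of 0.06 (standard error 0.11). The genotypes overlapped for all 3 genes. The Akr1c12 and Akr1c13 differences each turned below 0 in at least 1 of the settings that were run.

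The 2 Akr1c20 probes, of different transcript records, did not give the same picture. The probe of XM_006516464 read −4.93, −4.69, and −4.56 in the WT samples and −4.26, −4.35, and −4.16 in the Selenbp1-KO samples (log2). All knockout values exceeded all WT values. The difference was 0.47 (standard error 0.13) or 1.38-fold, and it was 0.30 both with the normexp background correction and against WT replicate 4. The signal of this probe was close to the lowest values that the arrays call well above background, which ranged from −5.40 to −4.63. The probe of NM_054080 read −7.49, −7.57, and −7.07 in the WT samples and −7.04, −6.84, and −7.14 in the Selenbp1-KO samples, not well above background on any array. The fitted difference of 0.37 at that probe was close to the median difference of 0.38 over the 24333 probes that no array read well above background, and quantile normalization brought it to −0.01. NM_054080 therefore gives no direction for Akr1c20.

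**Figure D1:**
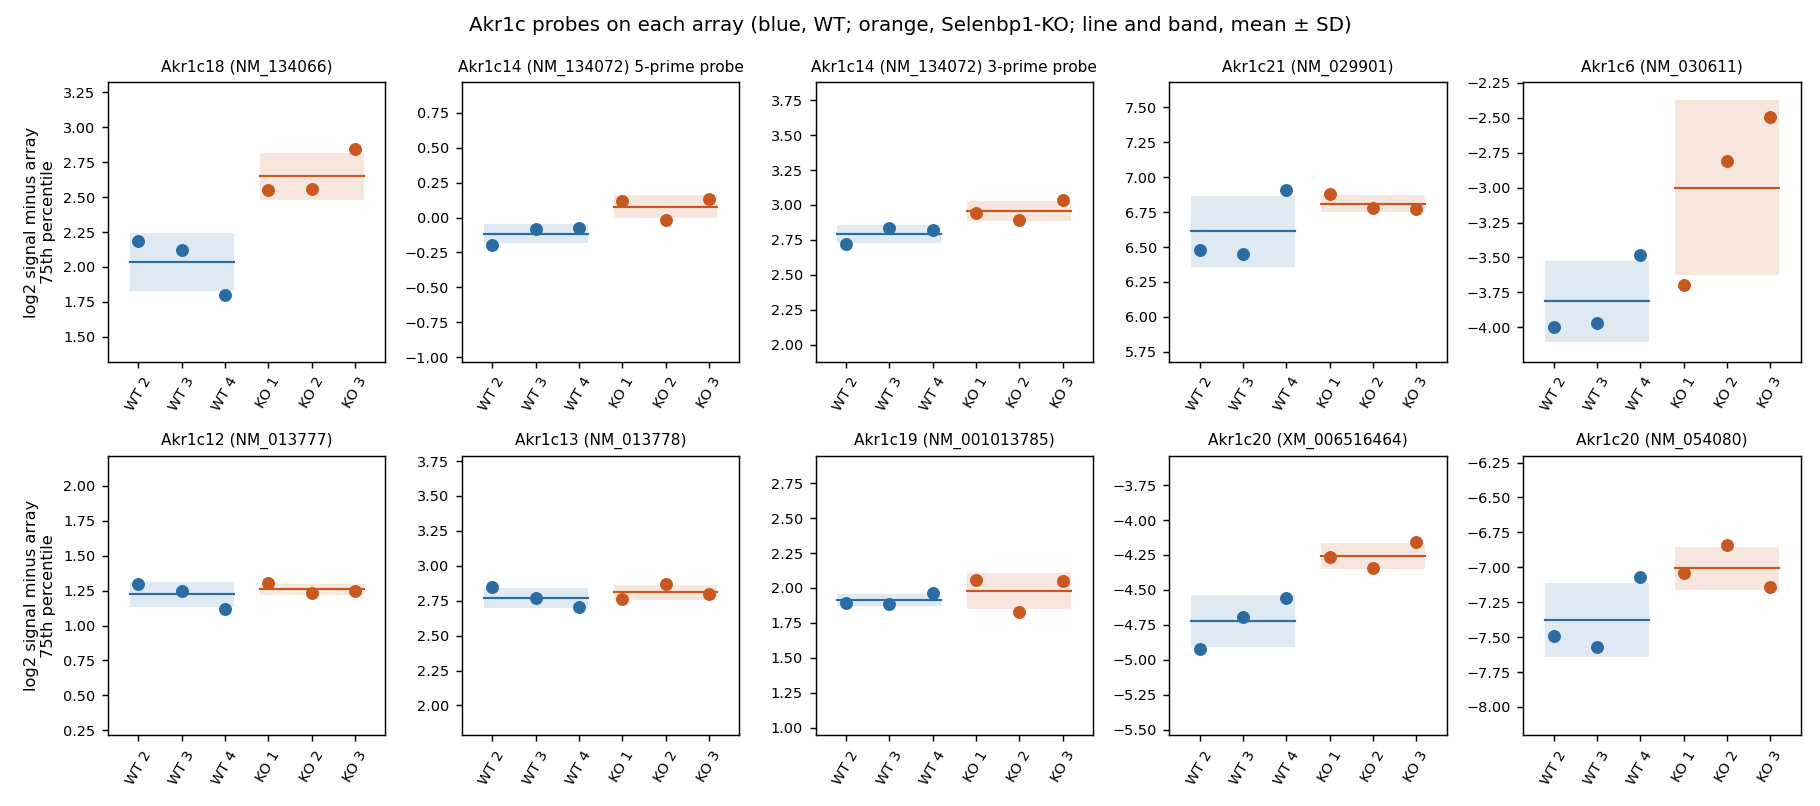
Log2 signal relative to the 75th percentile of each array for the 10 Akr1c probes on the 3 WT (blue) and 3 Selenbp1-KO (orange) arrays, with each group's mean (line) and SD (band). Every panel spans 2 log2 units around its own midpoint. Selenbp1-KO arrays lie above WT arrays for Akr1c18, both Akr1c14 probes, and Akr1c20 (XM_006516464), and overlap them in the other 6 panels.

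Across the family, all 10 probes had a difference above 0, with a median of 0.20. At 4 probes (Akr1c18, both of Akr1c14, and Akr1c20 XM_006516464) all knockout values exceeded all WT values, at 0 probes below, and at 6 the genotypes overlapped. For all 56097 probes tested, 66.2% had a difference above 0, 9.22% had Selenbp1-KO arrays above WT arrays and 4.06% below (13.3% without overlap), and the median was 0.11. That median was 0.00 after quantile normalization, and it was 0.01 among the 26818 probes well above background on all arrays, of which 52.1% had a difference above 0, 11.1% had Selenbp1-KO arrays above WT arrays, and 3.77% were called higher at an unadjusted p under 0.05. Of the 10 Akr1c probes, 9 belong to that well detected set. At an unadjusted p under 0.05 in the limma fit over all probes, which is the threshold of the study's methods, 2 members were called higher (Akr1c18 and Akr1c20 XM_006516464) and 0 lower, where 6.47% of all probes were called higher and 1.51% lower, or 7.98% in all. That balance depends on the scaling: 3632 of 4479 called probes were higher here, against 2527 of 4697 after quantile normalization, 2582 of 4687 with the authors' values, and 1361 of 3651 when blocked by slide side. Since the family was selected on this contrast, nothing is read from these counts. After Benjamini-Hochberg adjustment over all 56097 probes, 0 of the 10 probes had a limma adjusted p under 0.05 (the lowest was 0.279), as against 2 probes in all. This too depends on the setting. With limma's trend and robust options the limma adjusted p of Akr1c18 was 0.0055. Without WT replicate 4 it was 0.049 for both Akr1c20 probes.

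**Figure D2:**
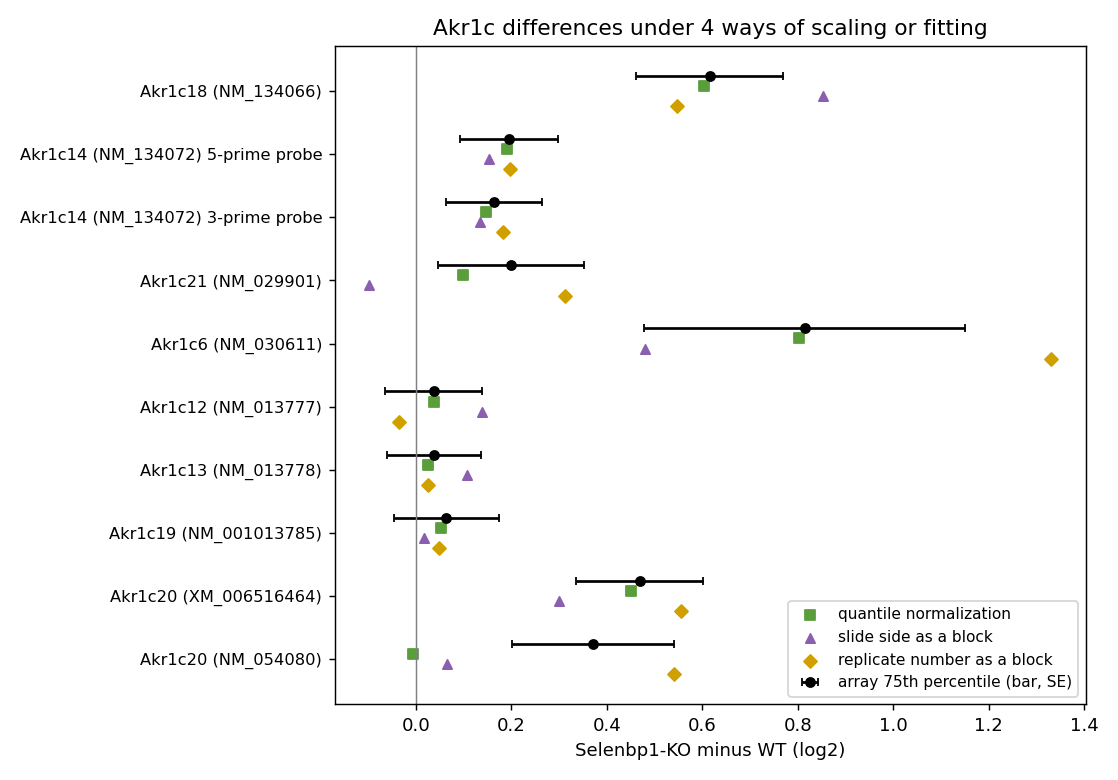
Difference of Selenbp1-KO minus WT on the log2 scale for the 10 Akr1c probes, scaled by the array's 75th percentile (black, bar for the standard error), after quantile normalization (green), blocked by slide side (purple), and with the replicate number as a block (yellow). Akr1c18 runs from 0.55 to 0.85 in these 4 fits, Akr1c6 runs from 0.48 to 1.33, and Akr1c12, Akr1c21, and Akr1c20 (NM_054080) cross 0.

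The genes with the most similar array profile were sought among 18353 genes well above background on all 6 arrays, as the root mean square distance between profiles centered on their own mean over the 6 arrays. These are descriptions over 6 arrays that share the contrast by which the family was chosen. For Akr1c18 the nearest were Krtdap (distance 0.0811), Spdef (0.0838), and Rasd1 (0.0992). For Akr1c14 they were a probe named only by its chromosome 6 region between 135294099 and 135300310 (0.0171), the potassium channel gene Kcnd1 (0.0179), and Fkbp3 (0.0207). The root mean square of the member's own centered profile was 0.34 for Akr1c18, 0.099 for Akr1c14, and 0.57 for Akr1c6. Distances are therefore not comparable between members.

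For Akr1c6 the nearest profile was that of Rdh7 (0.17), a retinol dehydrogenase gene, followed by Lrmp (0.187) and the transcript AK046777 (0.249). Rdh7 read −3.66, −3.55, and −3.25 in the WT samples and −3.63, −2.72, and −2.58 in the Selenbp1-KO samples (log2). Like Akr1c6, Rdh7 was low in Selenbp1-KO replicate 1 and high in replicates 2 and 3.

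Because Akr1c6 is known from liver, its arrays were set beside 14 hepatocyte genes. In none of the 14 did the genotypes differ at an unadjusted limma p under 0.05 (lowest adjusted p = 0.279), with a median difference of 0.10. The summed level of the list, in multiples of the array's 75th percentile, was 102 to 112 in WT and 97.9 to 113 in Selenbp1-KO kidneys. That sum is weighted to the brightest genes. The mean log2 level of the list was −0.81 to −0.54 in WT samples and −1.48, −0.29, and −0.03 in the Selenbp1-KO samples. Within the Selenbp1-KO arrays, several of the hepatocyte genes had the order seen for Akr1c6, and others did not. Apob read 2.42, 2.11, and 2.29 in the Selenbp1-KO samples (log2). Apoh (0.67, 0.60, and 1.01) and Fga (−0.90, −1.08, and −0.33) were lowest in Selenbp1-KO replicate 2. Alb, the serum albumin gene, read 0.87, 0.81, and 0.87 in the WT samples and −0.80, 1.64, and 2.16 in the Selenbp1-KO samples (log2). Ahsg, another secreted liver protein gene, had the most negative difference of the list (−1.24, standard error 2.01). It read −0.37, −0.71, and −1.07 in the WT samples and −6.87, 0.17, and 0.83 in the Selenbp1-KO samples. The value of −6.87 was not well above background. Cps1, with the highest difference, and Cyp7a1, the rate-limiting enzyme of bile acid synthesis, were not well above background on any array. The part of liver genes in the Akr1c6 values was not tested. In whole kidney RNA, a change in the number of cells of a type and a change in the RNA per cell cannot be told apart.

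**Figure D3:**
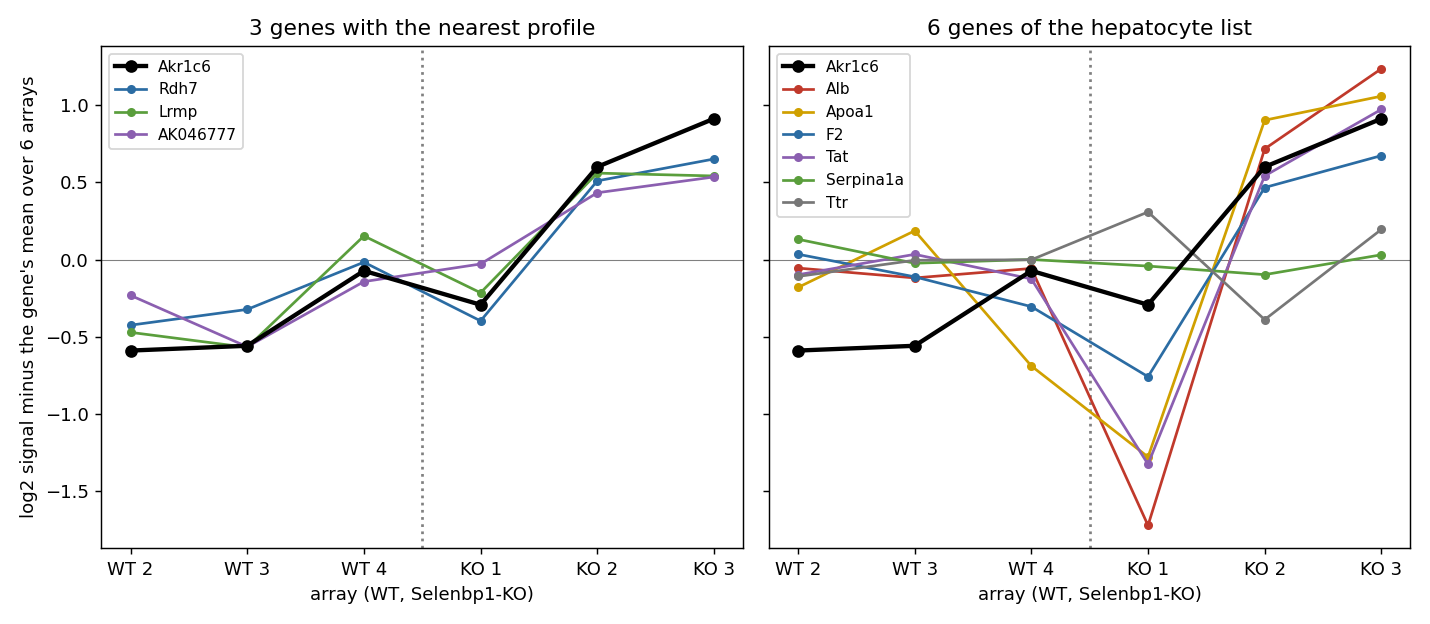
Log2 signal minus each gene's mean over the 6 arrays for Akr1c6 (black) beside the 3 genes with the nearest profile (left) and 6 genes of the hepatocyte list (right). In Selenbp1-KO replicate 1, Akr1c6 and Rdh7 are near their WT values and Alb and Apoa1 are below theirs, while all 4 are high in Selenbp1-KO replicates 2 and 3. Serpina1a stays flat.

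Akr1c18 is a known product of the inner adrenal cortex, so 10 adrenal cortex genes were examined. None passed an unadjusted limma p under 0.05 (lowest adjusted p = 0.279). Cyp11a1, Cyp11b1, Cyp11b2, and Mc2r, which act in adrenal steroid synthesis or its response to corticotropin, were not well above background on any array. Star (difference 0.03, standard error 0.16) was well above background on 3 WT and 2 Selenbp1-KO arrays. Cyp21a1 (0.19, standard error 0.23), Hsd3b1, Hsd3b6, Mrap, and Nr5a1 were well above background on all 6 arrays. The summed level of the list was 1.66 to 1.67 in WT and 1.91 to 2.15 in Selenbp1-KO kidneys, without overlap. This sum is weighted to the brightest genes of the list, Hsd3b6, Hsd3b1, and Mrap. Taken alone, each of the 10 genes overlapped between the genotypes. The highest difference was that of Mrap (0.89, standard error 0.57), which fat also expresses, and the lowest was that of Nr5a1 (−0.06). Mrap read −0.45 in Selenbp1-KO replicate 2, and without Mrap the summed levels of the genotypes overlap. The mean log2 level of the list was −4.57 to −4.38 in WT and −4.33 to −3.99 in Selenbp1-KO samples, also without overlap. That mean includes Mrap and the 4 genes that no array read well above background. Of the 10 genes, 9 had a difference above 0. The median was 0.28, or 0.16 over the genes well above background on at least 1 array.

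Fat and red blood cell genes also varied with the genotype or between the arrays. All 8 fat genes had a difference above 0, from 0.15 (Lep) to 1.60 (Retn), and 0 of 8 passed an unadjusted limma p under 0.05. Their summed level was 15.6 to 55.0 in WT and 23.5 to 139 in Selenbp1-KO kidneys, with the genotypes overlapping. Of 7 red blood cell genes, 4 rose at an unadjusted limma p under 0.05 (adjusted p = 0.279 each): Hbb-b1 by 1.26, Hbb-b2 by 1.17, Alas2 by 0.86, and Hba-a1 by 0.56. The lowest difference of the list was that of Slc4a1 (0.11), which is also counted below among the genes of other kidney segments. Epb4.2 was not well above background on any array. The summed level of the red blood cell list was 268 to 357 in WT and 382 to 574 in Selenbp1-KO kidneys, without overlap. Among WT arrays this sum was highest in replicate 4 (357), and among Selenbp1-KO arrays it was lowest in replicate 3 (382). Akr1c18 was lowest in that WT array and highest in that Selenbp1-KO array. The part of blood, fat, or adrenal RNA in the Akr1c values was not tested.

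The kidney markers differed little between the genotypes. None of 12 proximal tubule genes, the segment that reabsorbs most of the filtrate, and none of 10 genes of other segments passed an unadjusted limma p under 0.05. Their median differences were −0.02 and 0.04. Every one of these markers was well above background on all arrays, and Slc27a2 was fitted without WT replicate 3, where its spot had an outlier mark. In the proximal tubule the differences ran from −0.08 (Slc22a8) to 0.36 (Slc7a13), and in the other segments from −0.26 (Aqp2) to 0.17 (Atp6v1g3).

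The other aldo-keto reductases were compared at 1 probe per gene. Of 37027 genes tested in this way, 8.0% had an unadjusted limma p under 0.05 (6.87% higher and 1.13% lower), and the median difference was 0.13. On the same footing the median of the 8 Akr1c genes was 0.18. Of 9 other aldo-keto reductase genes, 0 passed (lowest adjusted p = 0.422), and the median was 0.11. Akr1b3, aldose reductase, read 5.93, 4.98, and 5.32 in the WT samples and 3.80, 5.78, and 3.86 in the Selenbp1-KO samples (log2). Selenbp1-KO replicates 1 and 3 lay below all WT arrays and replicate 2 lay within them, so the difference of −0.93 (standard error 0.58) was within the spread. Akr1d1, the 5β-reductase of bile acid and steroid metabolism, differed by 0.21 (standard error 0.19).

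Among 27 genes of steroid conversion, 4 rose and 0 fell at an unadjusted limma p under 0.05, each with an adjusted p of 0.279, and the median difference was 0.08. With the normexp background correction or limma's trend and robust options 4 rose and 1 fell, with quantile normalization or the authors' values 3 rose and 1 fell, and with the stricter detection filter or the methods' t-test 2 rose and 1 fell, the gene that fell being Hsd17b7 (−0.28 here, standard error 0.12, not past the threshold). Hsd11b1, which regenerates active glucocorticoid, read 3.71, 3.58, and 3.26 in the WT samples and 3.86, 4.17, and 4.12 in the Selenbp1-KO samples (log2). The genotypes did not overlap, and the difference was 0.53 (standard error 0.16). Cyp17a1, the 17α-hydroxylase and 17,20-lyase, read 1.77, 2.04, and 2.12 in the WT samples and 2.43, 2.30, and 2.53 in the Selenbp1-KO samples, also without overlap, a difference of 0.44 (standard error 0.14). Against WT replicate 4 alone, the Cyp17a1 difference was 0.30 and no longer passed. The other 2 genes were dim. Sult1e1, the estrogen sulfotransferase, was well above background on 1 WT and 1 Selenbp1-KO array, and its fitted difference was 1.65 (standard error 0.62) with overlapping genotypes. Hsd17b1 was well above background on 1 WT and 2 Selenbp1-KO arrays, with a difference of 0.52 (standard error 0.20).

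Of 20 genes that make, break down, transport, or sense prostaglandin F, 1 rose and 1 fell at an unadjusted limma p under 0.05, with adjusted p = 0.279 for both, and the median difference was 0.06. The gene that rose was Hpgd, the main prostaglandin-inactivating dehydrogenase. It read −0.87, −0.97, and −0.99 in the WT samples and −0.58, −0.67, and −0.58 in the Selenbp1-KO samples (log2), a difference of 0.33 (standard error 0.10) without overlap. The gene that fell was Hpgds, the hematopoietic prostaglandin D synthase, whose probe was not well above background on any array, so no fold is given. Ptgs2, cyclooxygenase 2, was likewise not well above background on any array, and Ptgfr, the prostaglandin F receptor, differed by 0.09 (standard error 0.12).

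Of 13 antioxidant genes that respond to Nrf2, a transcription factor known to act on some aldo-keto reductase genes, 1 passed an unadjusted limma p under 0.05 (adjusted p = 0.279). This was Slc7a11, whose probe was not well above background on any array. The median difference was −0.04. Nqo1, a classical target, read 2.26, 2.58, and 2.59 in the WT samples and 2.56, 2.23, and 2.51 in the Selenbp1-KO samples (log2), a difference of −0.04 (standard error 0.15).

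**Figure D4:**
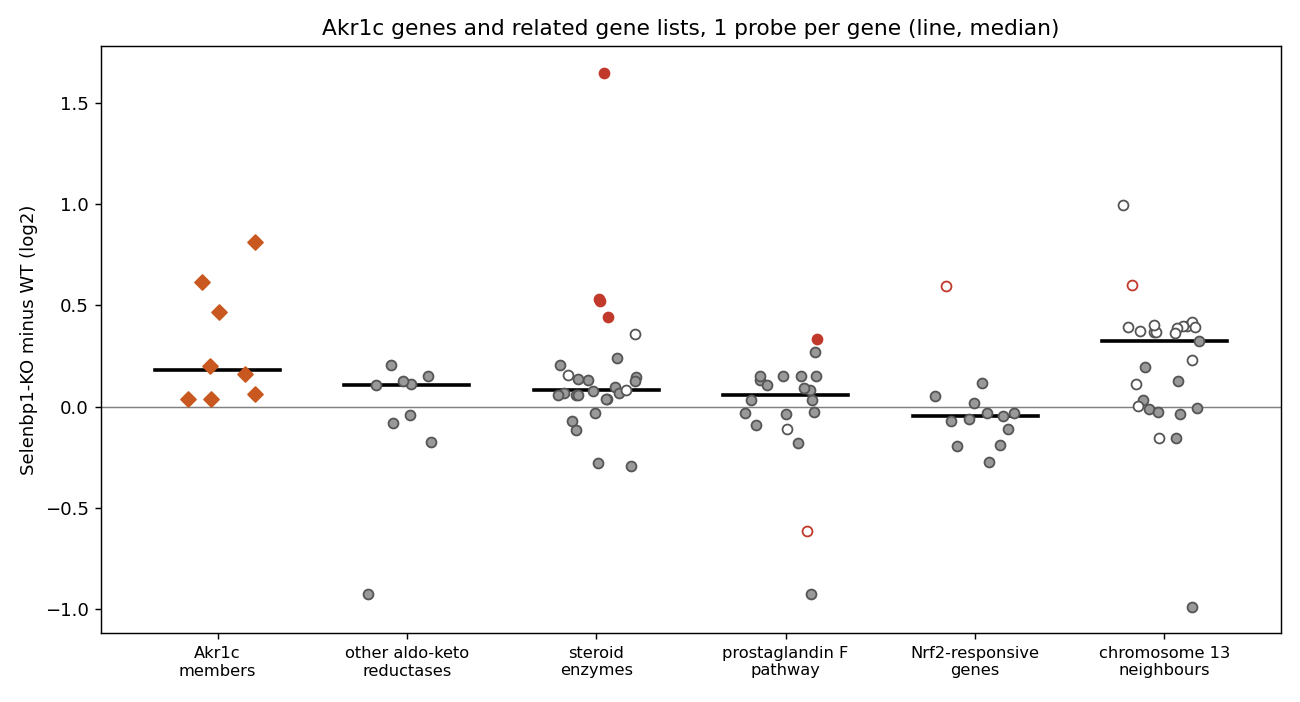
Difference of Selenbp1-KO minus WT on the log2 scale for the 8 Akr1c genes (diamonds, described only) and for 5 lists of other genes (circles), at 1 probe per gene, with the median of each as a line. Red marks an unadjusted limma p under 0.05 and open circles mark probes that no array read well above background. The medians are 0.18, 0.11, 0.08, 0.06, −0.04, and 0.33 from left to right, and most of the neighbours are open circles.

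Genes that lie beside the cluster, within 1 Mb on either side of the Akr1c probes on mm9, were also examined. Of 27 such genes, 1 rose at an unadjusted limma p under 0.05 (Speer6-ps1, not well above background on any array, adjusted p = 0.279). As many as 17 of the 27 were not well above background on any array, and the median difference was 0.33, beside 0.38 for all probes that no array read well above background. Over the 9 neighbours well above background on all arrays, the median was −0.01. The greatest absolute difference among these was that of Calml3, a calmodulin-like gene, which read −0.50, −1.41, and −0.07 in the WT samples and −2.39, −0.37, and −2.19 in the Selenbp1-KO samples (log2). The genotypes overlapped, and the difference was −0.99 (standard error 0.62). Akr1e1, an aldo-keto reductase gene of another subfamily within this window, differed by 0.13 (standard error 0.12).

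RefSeq promoters (assembly GRCm38.p6, from 250 bases before to 50 bases after the start of a gene) were given for 7 of the 8 members: Akr1c6, Akr1c12, Akr1c13, Akr1c14, Akr1c18, Akr1c19, and Akr1c21. The promoters of Akr1c12 and Akr1c13 were alike at 245 of the 297 bases over which they overlap without gaps (82.5%). Every other pair of members was alike at 30.8% to 35.9%. Likeness across gaps was not tested, and Akr1c13 and Akr1c19 have a run of 15 bases in common. Whether Akr1c12 and Akr1c13 stand apart from the whole family was therefore not settled. The longest run in common was that of Akr1c12 and Akr1c13. It has 75 bases, from 152 to 78 bases before the Akr1c12 start and from 155 to 81 bases before the Akr1c13 start.
Akr1c12 and Akr1c13: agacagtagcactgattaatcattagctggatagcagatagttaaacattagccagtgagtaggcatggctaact
Short motifs were searched on both strands of these promoters. The antioxidant response element core TGACNNNGC was in 1 of 7 members (Akr1c19) and in 12.4% of 32851 RefSeq promoters of the same length. The steroid receptor half-site AGAACA was in 0 of 7 and in 6233 of the 32851. TATAAA was in 1 of 7 (Akr1c6) and in 13.6% of all. CCAAT was in 3 of 7 (Akr1c6, Akr1c14, and Akr1c19) and in 37.4% of all. A match describes only the letters of the window and is not a site that was shown to be bound.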

How the data were processed

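The authors hybridized kidney RNA of 3 WT and 3 Selenbp1-KO mice to one-color Agilent arrays and deposited the scanner output (Feature Extraction 10.7.1.1 in the file headers, 9.5.1.1 in the labels; annotation on mm9). The intensities deposited are background-subtracted and detrended within each array and are not scaled between arrays. Each deposited p-value compares a spot with its background. A second deposited table, with 1 intensity per probe, served as an alternative.

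Flagged outlier spots were left out. Log2 intensities minus the array's 75th percentile were fitted with limma 3.58.1 in R 4.3.3 (two-sided) on the 56097 probes detected on at least 1 array, at the unadjusted threshold of 0.05 that the methods state, with Benjamini-Hochberg values over all probes beside it. A gene is its brightest probe, named through RefSeq accessions (32989 of 56605 probes). The members and gene lists were chosen with earlier results of these data known. The promoter search and the probe comparison were added after the data were seen. The text names all members, up to 4 genes per list past the threshold (otherwise the 2 with the largest difference), the lowest and highest marker of each marker list, and 3 genes with the nearest profiles. Genes named outside this rule (such as Nqo1, Hsd17b7, Ptgfr, Alb, and the hepatocyte genes plotted) were chosen after their values were seen. One gene of a marker list is not reported here. The labels do not number the animals, so the p-values measure the spread between these samples.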

Additional observations from a re-analysis of the deposited data

How the results depend on the processing

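Of the 10 Akr1c probes, 2 had an unadjusted limma p under 0.05. There were 4 with quantile normalization, scaling by the array median, the authors' values, the stricter detection filter (1 genotype with all its arrays well above background), or the methods' t-test, 1 when blocked by slide side, and 2 to 5 on leaving out each array (5 without WT replicate 4). Directions turned for Akr1c13 with normexp (−0.0018), Akr1c12 with the replicate block (−0.036) and on leaving out an array (−0.014 to 0.075, lowest without WT replicate 4), Akr1c20 NM_054080 with quantile normalization and the authors' values (−0.0062 for both), and Akr1c21 when blocked by slide side (−0.10). Akr1c18, Akr1c6, Akr1c14, Akr1c19, and Akr1c20 XM_006516464 stayed above 0 in the 17 settings.

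The labels give 2 replicate numbers to both genotypes. Deviations from the group means correlated at 0.17 (replicate 2) and 0.19 (replicate 3) over 28509 probes, but nothing in the labels ties these mice together and only 2 pairs exist, so the samples share only a number. With the replicate block, which drops WT replicate 4 and Selenbp1-KO replicate 1 from the contrast, 4 Akr1c probes, 14 chromosome 13 neighbours, and 18430 of all probes passed.

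Of all probes, 4479 passed, against 14616 with scaling by the array median, 2841 with the stricter filter, and 7536 with trend and robust options. Leaving out an array gave 2024 (without WT replicate 2) to 17585 (without WT replicate 4). It gave 2627 without WT replicate 3, and 2808 when Selenbp1-KO replicate 2 was left out.

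For the other aldo-keto reductases the count was 0, and 1 with the mean over a gene's probes, and 0 to 1 on leaving out an array (1 without Selenbp1-KO replicate 2). For steroid conversion it was 4, 1 when blocked by slide side, and 1 to 5 on leaving out an array (1 without WT replicate 2, Selenbp1-KO replicate 1, or replicate 2, and 2 without replicate 3). Hsd11b1 no longer passed without Selenbp1-KO replicate 2 or 3, nor Hpgd with the replicate block or without Selenbp1-KO replicate 1 or 3, nor Cyp17a1 when blocked by slide side or without WT replicate 2, Selenbp1-KO replicate 1, or replicate 3. For prostaglandin F it was 2, 4 with quantile normalization or the authors' values, 1 with normexp, the filter, the side block, or the mean over a gene's probes, and 1 to 3 on leaving out an array (1 without Selenbp1-KO replicate 1 or 3). With the replicate block 2 fell and 0 rose, and the 1 gene called without Selenbp1-KO replicate 1 or 3 fell. For Nrf2 genes the count was 1, 0 with normexp, quantile normalization, the authors' values, the filter, or the t-test, 2 with trend and robust options, and 0 to 1 on leaving out an array (0 without replicate 2 or 3 of either genotype). The direction was not stable: the 1 was higher, and the 2 with trend and robust options were lower. For the chromosome 13 neighbours the count was 1, 5 with normexp, 11 with scaling by the array median, 0 with the filter, the t-test, or the side block, 2 with trend and robust options, and 0 to 14 on leaving out an array (0 without WT replicate 2 or 3, 14 without WT replicate 4, 3 without Selenbp1-KO replicate 3). The 1 was higher here, but with quantile normalization or the authors' values 1 was lower and 0 were higher. The cause was not tested for any of these. The slide side rests on WT replicate 4 alone, and signal over background limits Akr1c6, Akr1c20, and most neighbours.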
